A study of Pimephales promelas with 16 samples.

Results

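Described here are 60 array probes of the fathead minnow (Pimephales promelas) ovary that lay on one side of control after DHT and on the other side after both flutamide and LIN. They were taken from the 11144 probes well above background on all 16 arrays, of 15208 probes per array. The level of a probe is the log2 of its signal minus the log2 of the 75th percentile of signals on the same array. A probe qualified if its mean DHT level minus mean control level had one sign and the differences for flutamide and for LIN both had the other. Qualifying probes were ranked by the smallest of their 3 absolute differences, and the 60 highest were kept. Of these, 55 were higher with DHT and lower with flutamide and LIN, and 5 ran the other way. The differences from control therefore chose the members and are given as descriptions. Where a test of them is printed, nothing is read from it for the members.

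DHT (dihydrotestosterone) is an androgen that binds the androgen receptor, a ligand-activated transcription factor. Flutamide is a drug that blocks that receptor, and linuron, a urea herbicide named in the study's title and read here as LIN, is known to bind it as an antagonist. In the fish ovary, follicle cells make androgens and convert part of them to oestrogens by aromatase, so androgens are both hormones and precursors there. Whether a probe belongs to a gene of these pathways was not tested, because none of the 14499 contig names on the array matched the gene table used here. The ovary label was not checked against marker genes for the same reason, and members are given by probe ID and contig name.

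The arrays measured total RNA from explants of female ovary kept for 12 h in one of 4 conditions, with 4 arrays each: DHT, flutamide or LIN at 1e-06 M, and a control whose carrier the labels do not give. Strain, age and whether the replicates came from separate fish are not given either, so every p-value here refers to the spread among the arrays, which may be technical. An explant holds oocytes and follicle cells together, and fewer cells of a type cannot be told apart from less RNA per cell. The replicate numbers in the labels are 1, 4, 5 and 6 for DHT, 2, 3, 5 and 6 for flutamide, 3, 4, 5 and 6 for LIN, and 1, 3, 4 and 6 for control. The 75th percentile of signal ranged from 921 to 3418 over the 16 arrays, from 80.9% to 87.8% of probes were well above background, and no probe was saturated. Position on the slide and treatment cannot be told apart, since all flutamide arrays shared one position number, all control arrays another, and 3 of 4 DHT and 3 of 4 LIN arrays one each. The remaining DHT array (number 4) had the control position, and the remaining LIN array (number 4) that of DHT. The arrays lay on 3 slides, and slide 2 held only control number 3 and flutamide number 2. Slide 1 was scanned on 1 day, and slides 2 and 3 on another.

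Opposite signs were a minority pattern. The 3 differences share the control arrays, so their signs tend to agree even without any effect of a chemical. No chance value is therefore set beside the counts, and they are not read as the chemicals acting alike. Of the 11144 probes, 4232 (38.0%) were lower than control with all 3 chemicals and 2603 (23.4%) were higher with all 3. A further 1489 (13.4%) were higher with DHT and lower with flutamide and LIN, and 770 (6.91%) were lower with DHT and higher with the other two. With each array centred on its median in place of its 75th percentile, that split turned to 993 and 1530. Over the 2259 opposite probes the smallest of the 3 differences had a median of 0.06 on the log2 scale. The last probe inside the limit of 60, UF_Ppr_AF_106276 (contig FJU.13353.C1), had 0.3565, and the first outside, UF_Ppr_AF_117430 (FJU.7221.C1), had 0.3562.

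**Figure D1:**
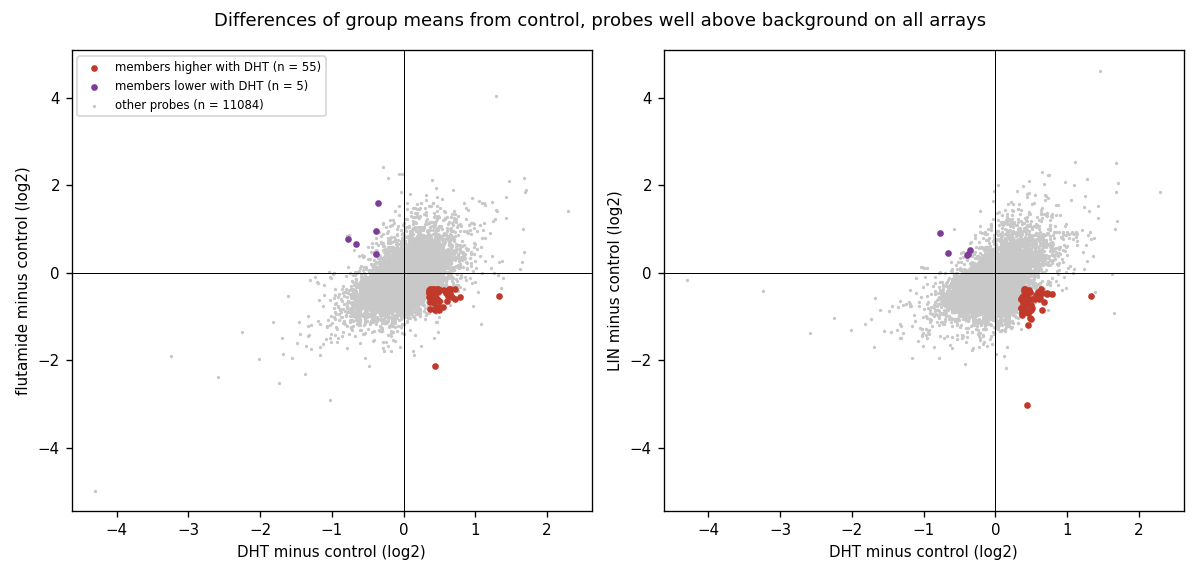
Mean log2 difference from control of each of the 11144 probes, with the members higher with DHT and the members lower with DHT marked among the other probes. The 55 members sit at DHT differences of 0.36 to 1.34 and the 5 at -0.78 to -0.36, on the opposite side of 0 from their flutamide and LIN differences.

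The 55 members that were higher with DHT differed from control by a median of 0.44 with DHT (0.36 to 1.34), -0.51 with flutamide (-2.13 to -0.36) and -0.63 with LIN (-3.02 to -0.37), on the log2 scale. Over all 11144 probes the same medians were -0.02, -0.08 and -0.10. The DHT median of the 55 was 0.24 without control replicate 3, 0.23 with slides as blocks, 0.16 within slide 3 and 0.13 with arrays centred on spike-in spots. These are small differences: 1 of the 55 was 1 or more above control with DHT, 1 was 1 or more below it with flutamide, and 4 were with LIN. The flutamide direction depended on the setting. With normexp background correction applied to median spot signals, 14 of the 60 members kept their flutamide sign and the flutamide median of the 55 became 0.41. That setting changes both the correction and the signal. With replicate numbers as fixed blocks 45 kept it and the median was -0.13, and with random blocks 57 kept it and the median was -0.27.

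**Figure D2:**
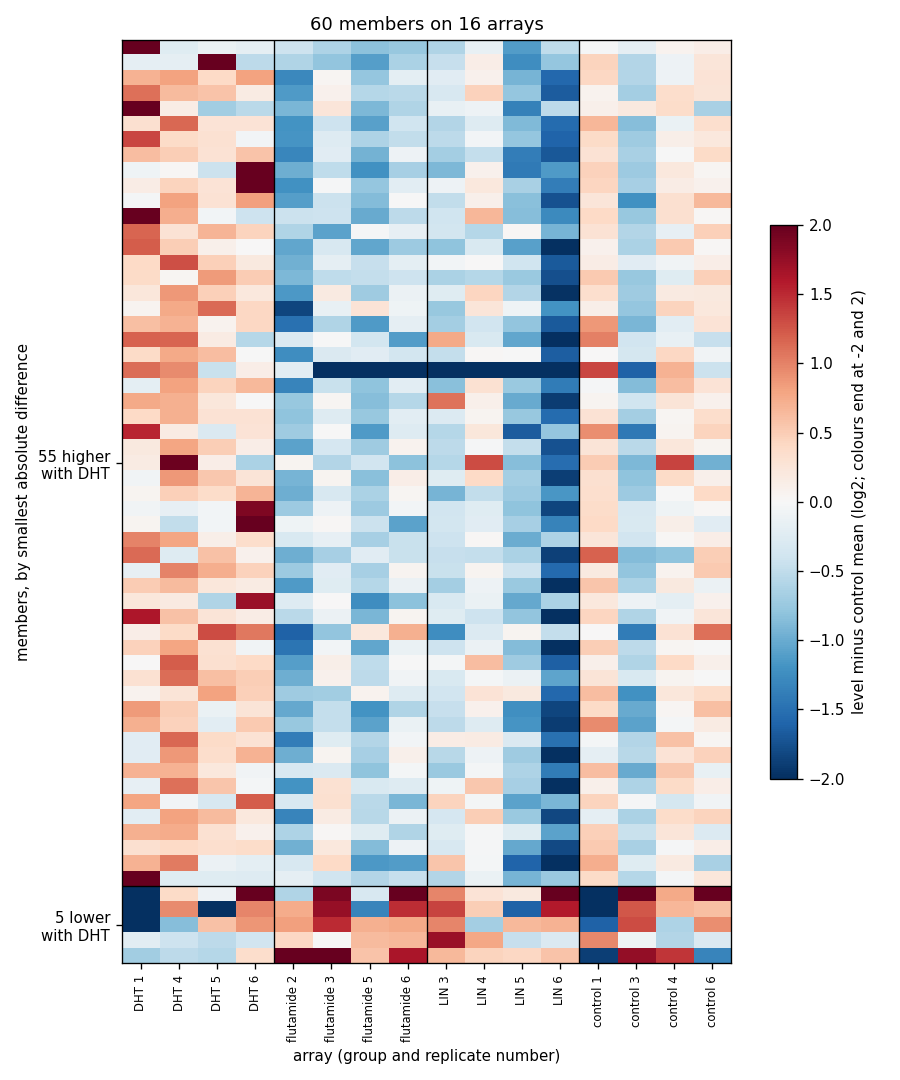
Level of every member on each of the 16 arrays minus its mean over the control arrays, on the log2 scale, with DHT, flutamide, LIN and control arrays from left to right. The LIN array numbered 6 was the lowest LIN array for 45 of the 55 members, and the control array numbered 3 the lowest control array for 49. Control number 3 and flutamide number 2, the lowest flutamide array for 34, were the only arrays on slide 2.

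The member furthest from control with flutamide and with LIN was UF_Ppr_AF_113084 (FJU.11271.C2). Its levels were 1.35, 1.19, -0.21 and 0.37 on the DHT arrays, 0.03, -2.40, -2.95 and -2.21 on the flutamide arrays, -1.83, -2.13, -3.09 and -4.07 on the LIN arrays, and 1.58, -1.37, 0.94 and -0.19 on the control arrays. All 4 LIN arrays lay below all 4 control arrays, flutamide and control overlapped, and the DHT levels fell within the control range. The differences from control were 0.43, -2.13 and -3.02, each with a standard error of 0.73 in the fit without a replicate block. Among the members it had the lowest adjusted p by limma in that fit for both flutamide (0.370) and LIN (0.217).

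UF_Ppr_AF_117318 (gi_73458846) had levels of -1.18, -1.08, -1.71 and -1.37 with DHT, -3.27, -2.38, -2.92 and -1.96 with flutamide, -2.46, -2.15, -2.56 and -3.45 with LIN, and -0.92, -2.70, -1.99 and -1.51 in control. Its DHT arrays all lay above its flutamide and LIN arrays, while the control arrays overlapped both. UF_Ppr_AF_115540 (gi_72691642) had levels of -3.53, -4.24, -4.63 and -4.73 with DHT, -5.77, -5.05, -5.78 and -5.47 with flutamide, -5.54, -5.04, -5.82 and -7.29 with LIN, and -4.65, -5.36, -4.22 and -4.71 in control. Again the DHT arrays lay above all flutamide and LIN arrays, and its lowest array was LIN number 6.

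UF_Ppr_AF_105293 (FJU.3539.C2) had levels of -0.44, -0.33, -0.73 and -0.32 with DHT, -2.42, -1.10, -1.90 and -1.33 with flutamide, -1.36, -1.04, -2.07 and -2.70 with LIN, and -0.72, -1.71, -1.23 and -0.86 in control. The DHT arrays were close together and above all flutamide and LIN arrays, with the lowest DHT array just under the highest control array. It is 1 of 6 members that kept their 3 signs in all 11 other settings that alter their values and without any 1 array. The others were UF_Ppr_AF_105193, UF_Ppr_AF_109870, UF_Ppr_AF_102146, UF_Ppr_AF_114774 and UF_Ppr_AF_100491, all higher with DHT and singled out after their values were seen. Median scaling and spike-in centring are among the 11 settings and could change no member's sign.

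**Figure D3:**
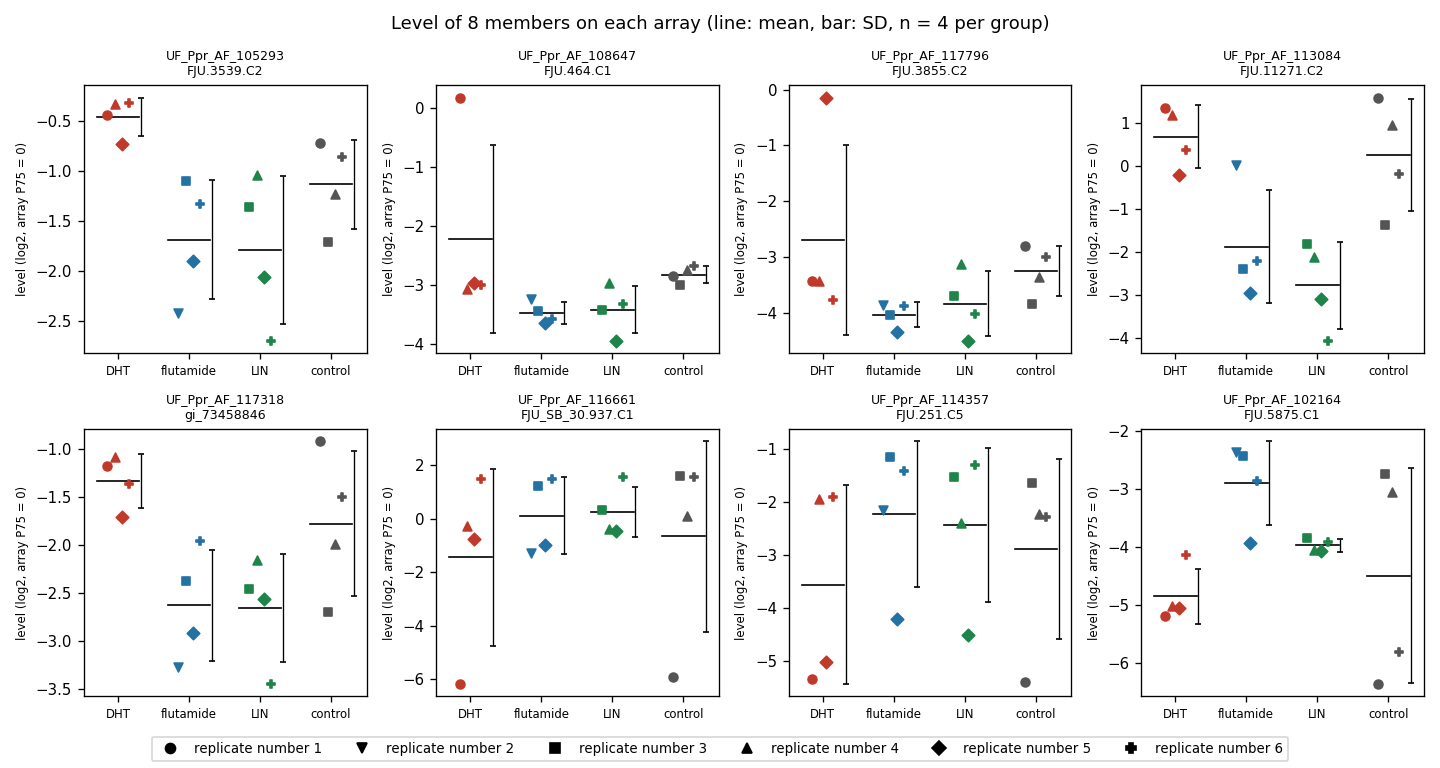
Levels of named members on each array by group, DHT, flutamide, LIN and control from left to right, in log2 units relative to the array's 75th percentile. For UF_Ppr_AF_108647 a single DHT array at 0.18 lies far above the other DHT arrays, while for UF_Ppr_AF_105293 the 4 DHT arrays lie together.

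In several of the largest DHT differences one array stood apart. UF_Ppr_AF_114735 (FJU.10402.C1), the largest at 1.34, had levels of 0.95, -5.33, -6.17 and -6.02 with DHT, against -5.37, -5.29, -5.12 and -6.14 in control, and its flutamide and LIN arrays lay between -6.83 and -5.23. UF_Ppr_AF_108647 (FJU.464.C1) had 0.18, -3.07, -2.96 and -3.00 with DHT, against -2.85, -3.00, -2.75 and -2.68 in control. In both, the other 3 DHT arrays were within or just below the control range. UF_Ppr_AF_117796 (FJU.3855.C2) had -3.42, -3.42, -0.14 and -3.77 with DHT, against -2.81, -3.84, -3.35 and -3.00 in control. UF_Ppr_AF_112508 (FJU.2614.C2) had -5.28, -5.00, -5.17 and -3.13 with DHT, against -5.00, -6.10, -5.30 and -5.35 in control. Without its highest DHT array, the DHT difference was -0.36 for UF_Ppr_AF_114735, -0.19 for UF_Ppr_AF_108647 and -0.29 for UF_Ppr_AF_117796, each below control, while UF_Ppr_AF_112508 stayed above control at 0.29. By Dixon's ratio for 4 values, 1 DHT array stood above the other 3 in 8 of the 55 members (14.5%), against 3.20% of all 11144 probes. The top DHT array was more than 1 above the next in 13 of the 55 (23.6%), against 4.40% of all probes. The rule used the DHT means, which 1 high array raises, so nothing is read from these shares.

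The 5 members lower with DHT differed from control by a median of -0.39 with DHT (-0.78 to -0.36), 0.77 with flutamide (0.43 to 1.60) and 0.45 with LIN (0.41 to 0.92). Arrays of replicate number 1, which exist for DHT and control and not for flutamide or LIN, were low in some of the 5 but not in UF_Ppr_AF_110805. UF_Ppr_AF_116661 (FJU_SB_30.937.C1) had levels of -6.18, -0.28, -0.75 and 1.48 with DHT, -1.26, 1.23, -0.97 and 1.48 with flutamide, 0.32, -0.38, -0.45 and 1.58 with LIN, and -5.90, 1.60, 0.10 and 1.58 in control. The number 1 arrays averaged -6.04 and the other 14 averaged 0.38.

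UF_Ppr_AF_114357 (FJU.251.C5) had -5.34, -1.95, -5.02 and -1.91 with DHT, -2.14, -1.15, -4.20 and -1.42 with flutamide, -1.53, -2.39, -4.50 and -1.30 with LIN, and -5.39, -1.65, -2.23 and -2.28 in control. UF_Ppr_AF_113774 (FJU.4436.C1) had -4.74, -3.41, -1.96 and -1.68 with DHT, -1.73, -1.07, -1.85 and -1.80 with flutamide, -1.58, -3.24, -1.90 and -1.86 with LIN, and -4.18, -1.25, -3.17 and -1.63 in control. In both, the 2 arrays numbered 1 were below every other array. In UF_Ppr_AF_114357 the arrays numbered 5, a number that control lacks, were also low, at -5.02 with DHT, -4.20 with flutamide and -4.50 with LIN. UF_Ppr_AF_102164 (FJU.5875.C1) had -5.18, -5.01, -5.06 and -4.14 with DHT, -2.36, -2.42, -3.92 and -2.85 with flutamide, -3.84, -4.05, -4.07 and -3.91 with LIN, and -6.37, -2.73, -3.05 and -5.80 in control. Its flutamide and LIN arrays lay above all its DHT arrays, while control overlapped all 3 groups. UF_Ppr_AF_110805 (gi_73564906) had -2.87, -3.08, -3.17 and -3.03 with DHT, -2.66 or higher on each flutamide array, -0.93, -1.88, -3.11 and -2.94 with LIN, and -1.70, -2.75, -3.24 and -2.95 in control. Its number 1 arrays were not low, and its flutamide arrays lay above all its DHT arrays. Without the control array numbered 1, only 1 of the 5 kept its 3 signs.

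In the main fit, which had no replicate block, no member passed an adjusted p of 0.05 by limma in any of the 6 pairwise comparisons. With a random block 1 member passed for LIN against control and 4 for LIN against DHT, as given with the replicate numbers. For DHT against control 0% of the 13146 probes in the main fit passed, for flutamide 0.0152% and for LIN 0.0228%, or 0, 2 and 3 probes, all lower with the chemical. At an unadjusted p under 0.05, 3 members passed for DHT (UF_Ppr_AF_105193, UF_Ppr_AF_114774 and UF_Ppr_AF_114117, all higher), against 2.05% of all probes. For flutamide 4 passed (UF_Ppr_AF_101832, UF_Ppr_AF_117318 and UF_Ppr_AF_113084 lower, UF_Ppr_AF_102164 higher), against 10.4% of all probes, and for LIN 11 passed, against 10.4%. Flutamide minus DHT passed for 35 members, against 5.08% of all probes, and LIN minus DHT for 42, against 6.89%. The rule used these contrasts, so nothing is read from those counts.

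The DHT and control arrays did not overlap for 2 members, UF_Ppr_AF_109870 and UF_Ppr_AF_114117, against 2.37% of all probes. Flutamide and control did not overlap for 2, UF_Ppr_AF_108647 and UF_Ppr_AF_117796, against 6.68%, and LIN and control for 1, UF_Ppr_AF_113084, against 3.72%. The separation lay between the treatments: flutamide and DHT did not overlap for 30 members, against 5.31% of all probes, and LIN and DHT for 25, against 3.87%. All 8 flutamide and LIN arrays lay on one side of all 4 DHT arrays for 19 members, against 1.72%. Flutamide and LIN did not overlap for 0 members, against 0.646%. These too follow from the choice of members. In UF_Ppr_AF_109870 (FJU.11908.C1) the DHT levels were -0.87, 0.03, -0.79 and -1.08, the flutamide levels -2.22, -1.45, -1.72 and -1.46, the LIN levels -1.32, -1.26, -1.67 and -2.94, and the control levels -1.11, -1.49, -1.33 and -1.13. The lowest DHT array, at -1.08, was just above the highest control array, at -1.11.

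Flutamide and LIN were set against each other at the same dose and time, the one pairwise contrast whose sign the rule did not fix. The rule still used both means, since both had to lie on the same side of control and away from it. The members' values are therefore descriptions, and no likeness of flutamide and LIN is read from them. Flutamide minus LIN had a median of 0.12 over the 60 members (-0.20 to 1.08), against 0.04 over all 11144 probes. It was positive in 45 of the 60 (42 of the 55 and 3 of the 5), against 6494 of the 11144. Here a positive value puts LIN further from control in the 55, and flutamide further in the 5. Under fixed replicate blocks the median over the 60 was 0.40 and 55 of the 60 were positive. Under random blocks these were 0.30 and 54, and the medians over all probes were 0.07 and 0.06. LIN lay further from control than flutamide in 44 of the 60. Dim probes as a whole did too. With probes split into 5 equal classes by mean level, the dimmest class had median differences from control of -0.31 with flutamide and -0.41 with LIN. Of the 60 members, 26 were in that class. At an unadjusted p under 0.05, 0 of the 60 passed, against 0.989% of all probes, and at an adjusted p under 0.05 0 passed, against 0%. The 95% interval of the difference included 0 for all 60 with and without either block. Without a block, the distance from the difference to either bound had a median of 0.91 over the members, against 0.60 over all probes. For 23 members the interval stayed within 1 log2 unit of 0 (11 with the fixed block), and for the rest it reached beyond that. The members furthest apart were UF_Ppr_AF_102164, at 1.08 (95% interval -0.37 to 2.52), and UF_Ppr_AF_113084, at 0.89 (-0.67 to 2.46). At the other end were UF_Ppr_AF_101483 (gi_73431051), at -0.20 (-1.07 to 0.68), and UF_Ppr_AF_117796, at -0.19 (-1.51 to 1.13).

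The members were dim and variable. Their mean level had a median of -3.87, against -1.68 over all 11144 probes, and their residual SD a median of 0.64, against 0.40. The rule ranked differences of group means, which favours variable probes, and the SD was not set against probes of like brightness. Nothing is therefore read from the SD. With probes split into 5 equal classes by mean level, 26 members were in the dimmest class, then 20, 10, 4 and 0. Dim probes as a whole were lower with flutamide and LIN: in the dimmest class the median difference from control was -0.06 with DHT, -0.31 with flutamide and -0.41 with LIN, against 0.00, 0.06 and 0.01 in the brightest class. The part of this in the members' flutamide and LIN differences was not tested.

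**Figure D4:**
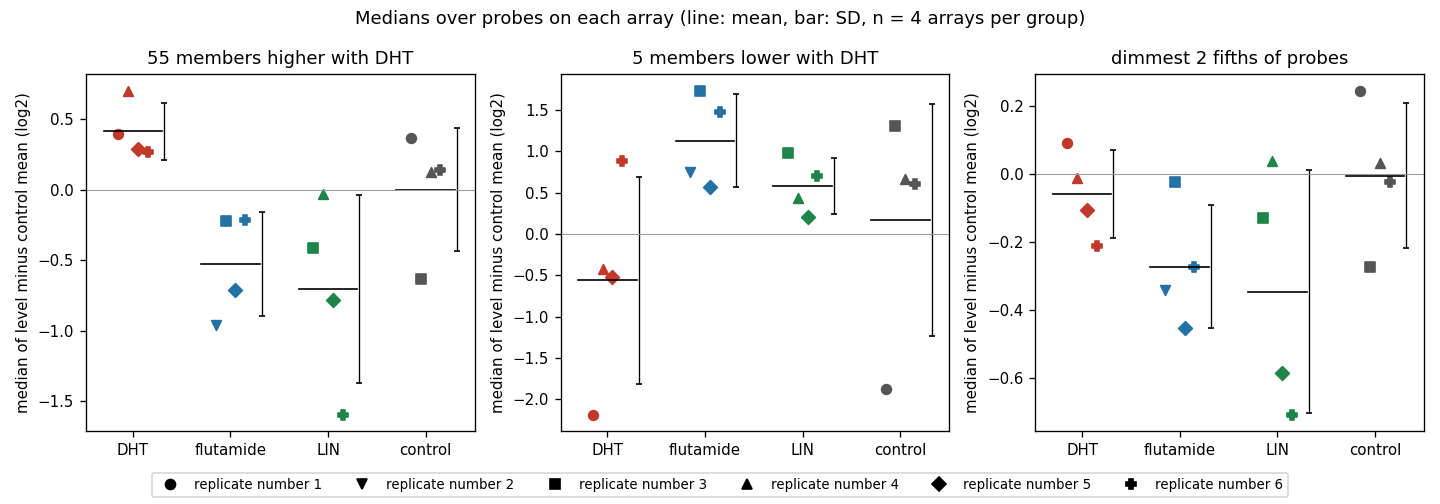
Median over the 55 members of the level minus the control mean on each array, beside the median over the dimmest 2 of the 5 classes of probes, on the log2 scale. The members' medians run from 0.27 to 0.70 on DHT arrays, -0.96 to -0.21 on flutamide arrays, -1.59 to -0.03 on LIN arrays and -0.63 to 0.37 on control arrays.

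Array by array, the median of the 55 members relative to the control mean was 0.39, 0.70, 0.29 and 0.27 on the DHT arrays, -0.96, -0.22, -0.71 and -0.21 on the flutamide arrays, -0.41, -0.03, -0.78 and -1.59 on the LIN arrays, and 0.37, -0.63, 0.12 and 0.14 on the control arrays. Control number 3 was lower than both flutamide arrays nearest to control and than LIN numbers 3 and 4, and control number 1 was as high as a DHT array. Over the dimmest 2 of the 5 classes of probes the same medians were 0.09, -0.01, -0.11 and -0.21 with DHT, -0.34, -0.02, -0.45 and -0.27 with flutamide, -0.13, 0.04, -0.59 and -0.71 with LIN, and 0.25, -0.27, 0.03 and -0.02 in control. The arrays on which the 55 were lowest, LIN number 6 and flutamide number 2, were among those on which dim probes were low. Flutamide number 2 and control number 3 were the only arrays on slide 2, so their slide cannot be told apart from the arrays themselves.

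Within groups, the 55 members also moved together. The deviations from group means correlated with a median r of 0.54 over their 1485 pairs, against 0.04 over all pairs of probes, and with the median of the dim probes at a median r of 0.67, against 0.24 for all probes. Each r is over the 16 arrays that all probes share and is given as a description. Members were not chosen on these deviations directly, but on group means, which a low or high array shared by many probes moves. LIN number 6 was the lowest LIN array for 45 of the 55, and control number 3 the lowest control array for 49. The r of the members therefore cannot be parted from their choice, and members and dim probes share arrays and brightness.

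Over all 11144 probes, arrays with the same replicate number deviated together (r 0.35 to 0.78 over 16 pairs of arrays, against -0.43 to 0.41 over 80 pairs with other numbers). Replicate number accounted for a median of 49.7% of within-group variation in the 55 members and 98.3% in the 5, against 78.8% over all probes. These shares are not adjusted for the number of terms fitted, so they lie well above 0 even without any effect of replicate number. Because same-numbered arrays deviated together, differences at matched numbers are given too. DHT was above control in 25 of the 55 members at number 1, in 47 at number 4 and in 34 at number 6, against 41.4%, 48.4% and 39.1% of all 11144 probes. Flutamide was below control in 4 of the 55 at number 3 and in 49 at number 6, against 38.6% and 57.0% of all probes. LIN was below control in 15 at number 3, in 36 at number 4 and in 54 at number 6, against 49.3%, 48.0% and 62.6%. Against DHT, flutamide was lower in 55 of 55 at number 5 and in 54 at number 6, against 56.2% and 48.4% of all probes. LIN was lower than DHT in 47 at number 4, in 55 at number 5 and in 54 at number 6, against 48.4%, 62.3% and 58.5%. Flutamide was above LIN in 40 of the 55 at number 3, in 34 at number 5 and in 52 at number 6 (medians 0.22, 0.11 and 1.33), against 61.8%, 62.8% and 60.9%. At number 6, which all 4 groups hold, 29 of the 60 members had their 3 signs (28 of the 55 and 1 of the 5). Of all 2259 opposite probes, 387 (17.1%) had theirs. These arrays are part of the means that chose the members, so the counts are descriptions.

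**Figure D5:**
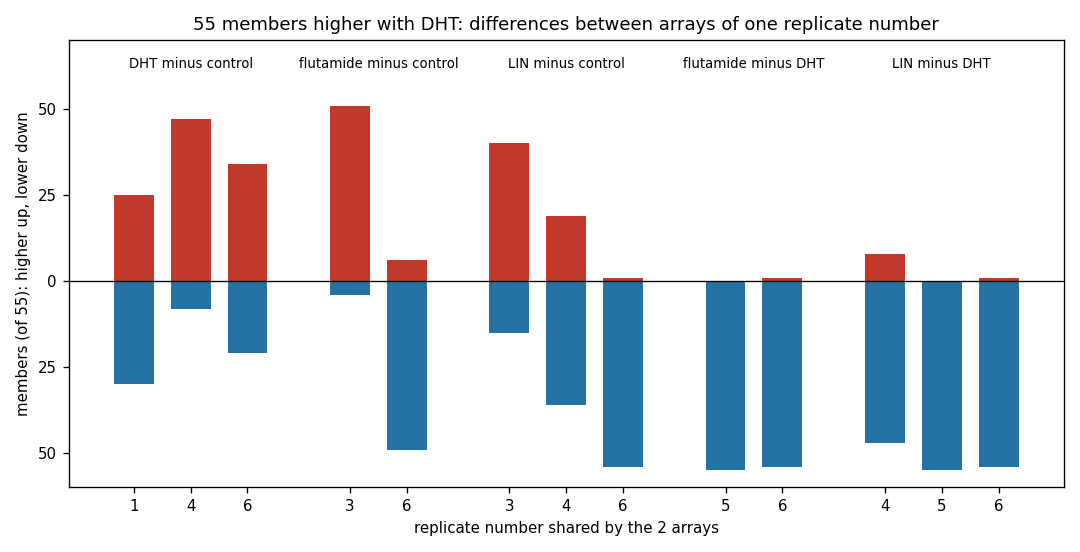
Number of the 55 members that were higher, and number lower, in each comparison between arrays of the same replicate number. At every shared number flutamide and LIN lie below DHT in 47 to 55 of the 55, while at number 3 flutamide lies above control in 51 and LIN in 40.

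With replicate numbers fitted as random blocks (correlation 0.631), flutamide minus control called 14 probes (0.106%), none a member, and LIN minus control called 147 (1.12%), among them the member UF_Ppr_AF_113084 at -2.63 (adjusted p = 0.0317 by limma). LIN minus DHT then called 46 probes (0.35%), of which 4 were members: UF_Ppr_AF_108959, UF_Ppr_AF_113084, UF_Ppr_AF_100257 and UF_Ppr_AF_114774, with adjusted p from 0.0200 to 0.0447 by limma. The rule used the means behind these contrasts, so nothing is read from the members among the calls. With the number as a fixed block no probe was called by limma in any of the 6 comparisons (585 to 2028 probes had an unadjusted p under 0.05), and the lowest adjusted p of a member was 0.152, for UF_Ppr_AF_113084 with LIN. The fixed block left the 55 members' medians at 0.46 with DHT and -0.59 with LIN, and moved that with flutamide to -0.13. Within slide 1, which holds 1 control array (number 1), 34 of the 60 members had their 3 signs, and within slide 3, which holds 1 flutamide array (number 6), 44 had them.

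In all, 15 members shared a contig stem with 19 other probes, of which 16 were in the fit, and 1 of the 16 had its member's 3 signs: UF_Ppr_AF_118477 (FJU.3539.C3), whose differences were 0.03, -0.12 and -0.16 beside those of UF_Ppr_AF_105293. Of all 11144 probes, 13.4% had the signs of the 55 members and 6.91% those of the 5. UF_Ppr_AF_112870, which shares its name stem with UF_Ppr_AF_117796, had -0.13, -0.10 and 0.07. Of the members, 2 shared their full contig name with another probe. UF_Ppr_AM_120579 (FJU.6672.C1) had 0.65, -0.38 and -0.86, while UF_Ppr_AF_106591 of the same name had -0.22, 0.06 and 0.05. Their mean levels were -5.98 and 0.69. UF_Ppr_AF_102164 shared its name with UF_Ppr_AM_120493, which was well above background on 0 arrays and had 0.85, 0.17 and 0.04. Nothing in the labels says whether contigs of one stem come from one gene. Names beginning gi_ made up 19 of the 60 members (31.7%), against 16.0% of all 11144 probes. Members were spread over the array, with 46.7% in its upper rows, against 49.7% of all probes.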

How the data were processed

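Per the file headers, arrays were read with version 10.7.1.1 of Feature Extraction (Agilent). Each file holds a background-subtracted intensity per spot on a linear scale and flags, as deposited. A value table deposited by the authors is on a log2 scale, and its scaling and centring are unknown (column medians 7.72 to 7.77). Its columns correlated with the same array's log2 signal at r of 0.9995 or more, and it was used as an alternative. Members and lists were chosen with earlier results of these data known. Signals of non-control probes were divided by the array's 75th percentile and log2-transformed, and 185 outlier spots were left out of the fit (none in a member). limma 3.58.1 in R 4.3.3 was fitted to 13146 probes well above background on at least 3 of 4 arrays of a group, with Benjamini-Hochberg adjustment. The fit was checked on simulated independent arrays, with changes in LIN larger than most members' differences. That check does not cover paired arrays or differences as small as those of the members. Array number limits the precision. Same-numbered arrays deviated together in all 16 pairs (lowest r 0.35), so the numbers were taken to pair the samples in the replicate-block fits. The main fit held group means only, so its p-values, standard errors and intervals leave that pairing out. Named members were, per direction, those with the largest smallest difference and the largest difference for each chemical, those furthest apart between flutamide and LIN, and those at the limit. Alternatives covered scaling, background correction, filter, slide and replicate blocks, and leaving out each array.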

Additional observations from a re-analysis of the deposited data

Results flagged for a closer look

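In 56 groups of 4 arrays (14 named members by 4 groups), 8 groups had 1 array standing apart from the other 3 by Dixon's ratio. Chance flags about 1 in 20 such groups, and 5.67% of the groups of all 11144 probes met the same criterion. The named members were picked by differences of group means, which 1 array apart can move, so the count is a description. With DHT, UF_Ppr_AF_108647 was at 0.18 on array 1 against -3.07 to -2.96 on the others, UF_Ppr_AF_114735 at 0.95 on array 1 against -6.17 to -5.33, and UF_Ppr_AF_106276 at -3.08 on array 1 against -5.52 to -5.50. UF_Ppr_AF_117796 was at -0.14 on DHT array 5 against -3.77 to -3.42. UF_Ppr_AF_112508 was at -3.13 on DHT array 6 against -5.28 to -5.00, and UF_Ppr_AF_102164 at -4.14 on the same array against -5.18 to -5.01. UF_Ppr_AF_113774 was at -1.07 on flutamide array 3 against -1.85 to -1.73. UF_Ppr_AF_114357 was at -5.39 on control array 1 against -2.28 to -1.65.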

How the results depend on the processing

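All 60 members kept their 3 signs with median scaling, quantile normalization, the authors' log2 values and spike-in centring. Median scaling and spike-in centring shift all probes of an array alike. Their shifts of the group differences were smaller than 0.3565, the smallest difference of any member, so no member's sign could change there. Fewer members kept their 3 signs with normexp (13), within slide 1 (34) and slide 3 (44), with the fixed (44) or random (56) replicate block, with the slide block (59) and with group medians (52). The cause was not tested. Chosen anew, the 60 shared 6 members with normexp, 32 with median scaling, 35 with the authors' values, 34 with quantile normalization, 11 with spike-in centring, 30 with the wider filter, 13 with the fixed replicate block, 25 with the random replicate block, 22 with the slide block, 7 within slide 1, 12 within slide 3 and 22 with group medians. Those higher with DHT were 33 with normexp, 11 with spike-in centring and 36 within slide 1. Opposite probes numbered 1042 with normexp, 1087 with spike-in centring and 1362 within slide 3. Spike-in centring put the medians of all probes at -0.33, -0.41 and 0.03, and normexp put that of flutamide at 0.24. Normexp, spike-in centring and group medians were chosen after seeing the data. The planned normexp on mean signals was not run, since median signals were used.

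Probes called for flutamide were 1 with quantile normalization, the authors' values or the all-array filter, 0 with normexp, no filter, the fixed replicate block, a trended prior or within slide 1, 14 with the random replicate block, 4 with the slide block and 10 within slide 3, which holds 1 flutamide array. For LIN they were 0 with normexp, spike-in centring, the fixed replicate block and within slides 1 and 3, 10 with the authors' values, 147 with the random replicate block and 6 with the slide block. Flutamide minus LIN called 15 within slide 3. There the lone flutamide array, and in slide 1 the lone control array, is assumed to vary like the other groups, so these counts rest on 1 array. Flutamide minus DHT called 1 probe with median scaling, quantile normalization or the authors' values, and LIN minus DHT called 6 with quantile normalization. Whether members were among the probes called outside the main and replicate-block fits is not given here. Leaving out 1 array gave 0 to 3 calls for flutamide and 0 to 81 for LIN (81 without LIN replicate 4). It kept the signs of 55 to 60 members, chose 23 (without control replicate 3) to 54 again, left 45 to 58 higher with DHT and gave 1718 to 2863 opposite probes. In all, 40 members kept their signs without any 1 array.

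Flutamide minus LIN changed sign for UF_Ppr_AF_117796 with normexp (0.65) and within slide 3 (0.38), and for UF_Ppr_AF_113084 within slide 1 (-0.70). For UF_Ppr_AF_101483 it was 0.34 with normexp, 0.26 under the fixed replicate block, 0.11 under the random one, 0.0068 under the slide block and 0.83 within slide 3. Without LIN replicate 4 it was 0.048 for UF_Ppr_AF_117796, and without LIN replicate 6 and flutamide replicate 2 it was -0.57 and 0.072 for UF_Ppr_AF_101483. Over all settings it ran from -0.67 to 0.83 for UF_Ppr_AF_101483, from -0.78 to 0.65 for UF_Ppr_AF_117796, from -0.70 to 1.37 for UF_Ppr_AF_113084 and from 0.61 to 1.42 for UF_Ppr_AF_102164. Of 1176 alternative values of the named members' differences from control, 62 changed sign. Many of the 1176 could not change. Leaving out an array of 1 chemical does not alter the differences for the other chemicals, and the wider filter alters no value of a member. Median scaling and spike-in centring alter the values but could change no member's sign.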
